A study of Mus musculus with 2 samples.

Results

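The clustered protocadherins are cell-surface proteins of the cadherin superfamily, encoded side by side on mouse chromosome 18 in an alpha, a beta and a gamma array. The members were all protein-coding genes of the GENCODE annotation whose symbol is Pcdha, Pcdhb or Pcdhg followed by a subtype. They were 57 of the 21755 protein-coding genes on chromosomes 1 to 19 and X, with 14 alpha, 22 beta and 21 gamma genes. Their 57 gene records carry 56 symbols, because the annotation gives the symbol Pcdha11 to a record starting at 37005203 as well as to its neighbour. RefSeq names the first of these Pcdha10 (ENSMUSG00000007440.10 here). Pcdhgb8, annotated as a polymorphic pseudogene, was not a member.

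The data are a single list of chromatin boundaries from in situ Hi-C, an assay that counts how often pairs of genome positions are ligated to each other in cross-linked nuclei. A boundary is a position that few of these contacts cross. MOR28-GFP mice (strain 129P2/OlaHsd, adult, both sexes mixed) were the source, and mature sensory neurons expressing the odorant receptor gene Olfr1507 (MOR28) were sorted from their olfactory epithelium. There was 1 group of 2 biological replicates, of 170000 and 220000 cells, cut with DpnII after fixation in 1% formaldehyde, with no treatment and no further modification listed. The authors merged both before boundaries were called, so no value below has a replicate error, the depth behind each boundary is unknown, and no test over samples was possible. Each comparison is a description of this map. The list holds no expression values, so neither the identity of the sorted cells nor the expression of any protocadherin could be checked.

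In alpha and gamma genes a large variable exon with its own promoter is spliced to exons shared by the whole array, whereas beta genes lack such shared exons. Single neurons are known to express different combinations of these isoforms, which form homophilic recognition complexes at the membrane. In olfactory sensory neurons this diversity is known to be needed for the axons to part from and find one another on the way to the olfactory bulb. Most alpha, beta and gamma promoters are chosen by chance in each cell, while the C-type genes (Pcdhac1, Pcdhac2, Pcdhgc3, Pcdhgc4 and Pcdhgc5) follow other rules. CTCF and cohesin are known to loop chosen alpha promoters to an enhancer called HS5-1 downstream of the array.

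Each array lay in a boundary interval of its own, with the boundaries in the spaces between arrays and none within an array. In GRCm38 the cluster runs from 36930184 to 37841873 on chromosome 18, all member genes on the forward strand, over 912 kb. The alpha array, from Pcdha1 to Pcdhac2, spans 257 kb and held 0 boundary midpoints. The beta array, from Pcdhb1 to Pcdhb22, spans 260 kb (37264938 to 37524479) and the gamma array, from Pcdhga1 to Pcdhgc5, spans 180.1 kb (37661793 to 37841873), and both also held 0. The whole cluster held 2 boundaries, 1 in the 77.3 kb between the alpha and beta arrays and 1 in the 137 kb between the beta and gamma arrays. Among windows of the cluster's length stepped by 5 kb along the 19 autosomes, the median was 3 boundaries, and 45.8% of windows held 2 or fewer. The number inside was therefore near the middle of what this map gives for such a length.

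**Figure D1:**
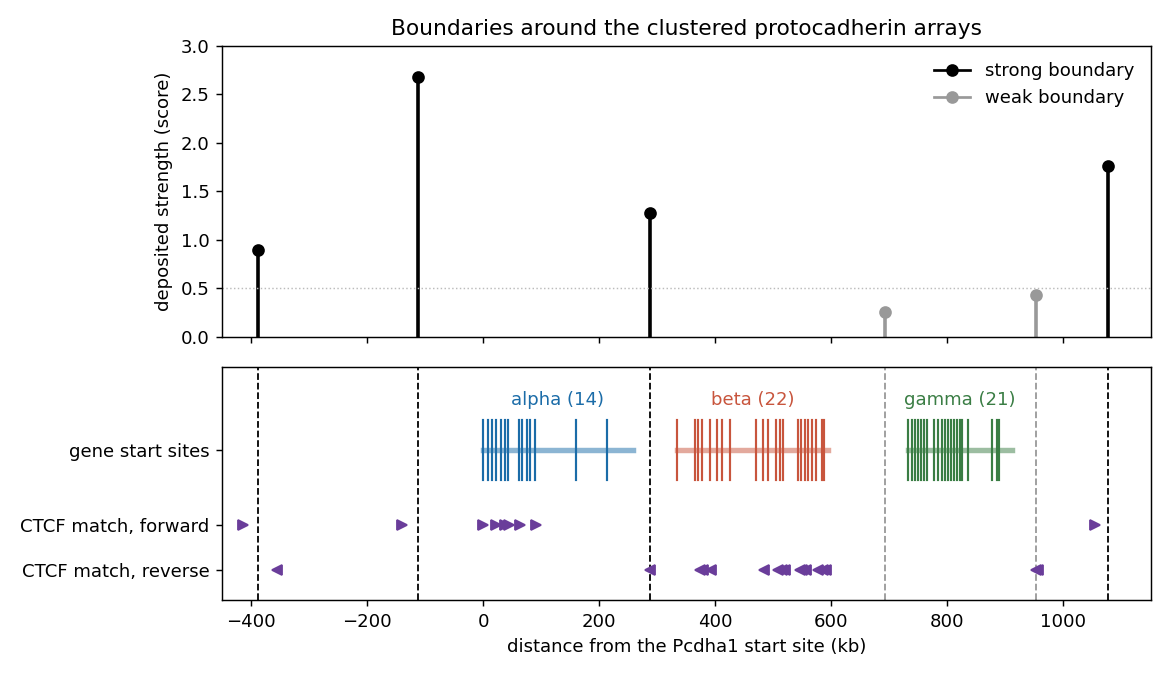
Boundaries (upper panel, deposited strength of each, with the strong threshold of 0.5 dotted) and start sites of the 57 genes with CTCF motif matches by strand (lower panel), by distance in kb from the Pcdha1 start site. Dashed lines repeat the boundaries, which fall between the arrays and not in them.

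The boundaries that close the arrays differed widely in deposited strength, a score that the authors gave each boundary on a scale they do not state in the material used. The list runs from 0.20 to 4.26 with a median of 0.563, and boundaries are classed strong from 0.5. Left of the alpha array, chr18:36815001-36820000 had a strength of 2.68, rank 27 of all 7367 boundaries and the second highest (rank 2) of the 254 on chromosome 18. Between the alpha and beta arrays, chr18:37215001-37220000 had a strength of 1.28, at percentile 85.4 of the list. The beta and gamma arrays were parted only by a weak boundary of 0.254 at chr18:37620001-37625000, at percentile 13.7 and close to the lowest value listed. The gamma array was closed on its right by another weak boundary, of 0.428, at chr18:37880001-37885000 (percentile 38.2).

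Farther out, strong boundaries stood on both sides. On the left, chr18:36540001-36545000, over exon sequence of Slc4a9, had a strength of 0.898, with a weak one of 0.449 beyond it at chr18:36330001-36335000. On the right, chr18:38005001-38010000 had a strength of 1.76, rank 17 on its chromosome, and chr18:38300001-38305000, over exon sequence of Rnf14, one of 1.08. With the strong boundaries alone the beta and gamma arrays shared 1 interval of 790 kb, from the 1.28 boundary to the 1.76 boundary, with 43 members. The alpha array kept its own 400 kb interval. The same grouping held for the 1842 strongest boundaries (25% of the list), whose lowest strength was 0.983. Whether the beta and gamma arrays appear apart thus rests on a boundary of 0.254.

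None of the 4 boundaries that close the arrays overlapped an annotated exon. The boundary left of the alpha array overlapped no annotated gene, and its nearest protein-coding transcription start site (TSS) was that of Zmat2, 23.6 kb away. Those between the arrays overlapped only introns of Gm42416, Gm37013 and Gm37388, which are annotated as protein-coding models of 857 to 887 kb that join alpha to gamma exons and so cross both boundaries. The boundary right of the gamma array lay in an intron of Diaph1, the gene of a formin that assembles actin filaments, 53.0 kb from its TSS. Of 32-base sequences sampled every 50 bp in these intervals, 68% were unique in the genome in the first, 100% in the alpha to beta boundary, 86% in the beta to gamma boundary and 100% in the last.

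The intervals of the arrays ranged in length from about the median to about the upper quartile and held many genes. They measured 400 kb for alpha, 405 kb for beta and 260 kb for gamma, at percentiles 74.5, 75.1 and 48.97 of 7347 intervals, whose median was 265 kb with quartiles of 185 and 405 kb. The alpha interval held 17 protein-coding TSSs, the 14 members and the 3 long models. The beta interval held its 22 members and no other protein-coding TSS. In the gamma interval there were 23, the 21 members with Slc25a2, a mitochondrial carrier gene, and Taf7, a gene of the general transcription factor TFIID, both left of Pcdhga1 on the reverse strand. The median interval of the genome held 2 protein-coding TSSs, and only 114 intervals (1.55%) had 17 or more, 57 (0.776%) had 22 or more and 48 (0.653%) had 23 or more. The unique share of sampled sequence was 75.4% in the alpha, 73.4% in the beta and 91.6% in the gamma interval, against 84.7% over the autosomes. Its part in where boundaries were found was not tested.

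**Figure D2:**
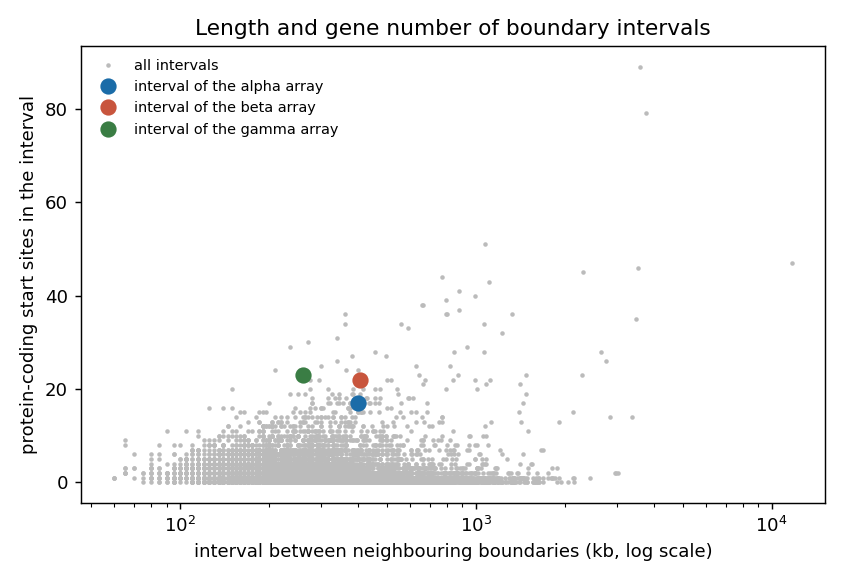
Protein-coding start sites in each of the 7347 boundary intervals against interval length (kb, log scale), 1 point per interval. The 3 array intervals, at 260 kb (near the median length) and 400 and 405 kb (near the upper quartile), hold 17 to 23 start sites, far above the median of 2.

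Genes of other kinds filled the intervals on either side. The next interval to the left, 275 kb long, held 16 protein-coding TSSs, among them Hars and Hars2 (histidyl-tRNA synthetases of the cytosol and mitochondria), Ndufa2 (a subunit of respiratory complex I), Cd14 (a co-receptor for bacterial lipopolysaccharide), Ik, Wdr55, Dnd1, Tmco6, Sra1, Apbb3, Slc35a4, Eif4ebp3, Ankhd1, E230025N22Rik, Zmat2 and the model AC115631.1. The next one to the right, 125 kb long, held Diaph1, Hdac3 (a histone deacetylase), Rell2, Fchsd1 and Arap3. After it, in the 295 kb between the 1.76 and 1.08 boundaries, lay Pcdh1 and Pcdh12, protocadherin genes outside the arrays, with Dele1 and Rnf14.

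None of the protocadherin start sites was at a boundary. A TSS was counted there when it lay within the 5000 bp of a boundary or no more than 10 kb from either end, which was so for 0 of 57 members and 13.0% of all protein-coding genes. It stayed 0 with no added bases (3.45% of all genes), with 25 kb on each side (25.0%) and with the TSSs of all 87 annotated transcripts of the members. With 50 kb on each side it was 4 (7.02% against 43.98% of all genes), namely Pcdhb1, Pcdhga1, Pcdhga2 and Pcdhga3. In the 114 intervals with 17 or more protein-coding TSSs, array intervals included, 145 of 2887 TSSs (5.02%) were at a boundary with 10 kb on each side. That share was below the 13.0% of all genes. These intervals were also longer, with a median of 462.5 kb against 265 kb for all intervals. In a longer interval a smaller part of the length lies near a boundary. The lower share is therefore not a trait of gene number alone, and the part of length in it was not tested. The members share 1 locus and 3 intervals, so they are not independent values and these shares were not tested.

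The distance from a start site to the nearest boundary midpoint followed the place of a gene in its array. Over all members the median distance was 120 kb, with a range of 39.3 to 201 kb, against a median of 61.1 kb (quartiles 27.5 and 111.0) for all protein-coding genes. Of the 57 members, 52 lay farther than that median and 34 beyond the upper quartile. The order depends on the boundaries counted: with the 1842 strongest alone the medians were 218 kb for the members and 281 kb for all genes. The median was 147 kb in the alpha, 129 kb in the beta and 84.5 kb in the gamma array. Pcdhga1, the first gamma gene, was the closest at 39.3 kb, followed by Pcdhga2 (46.5 kb) and Pcdhb1 (47.4 kb). The farthest were Pcdhb11 (201 kb) and Pcdha12 (197 kb), each near the middle of its interval.

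**Figure D3:**
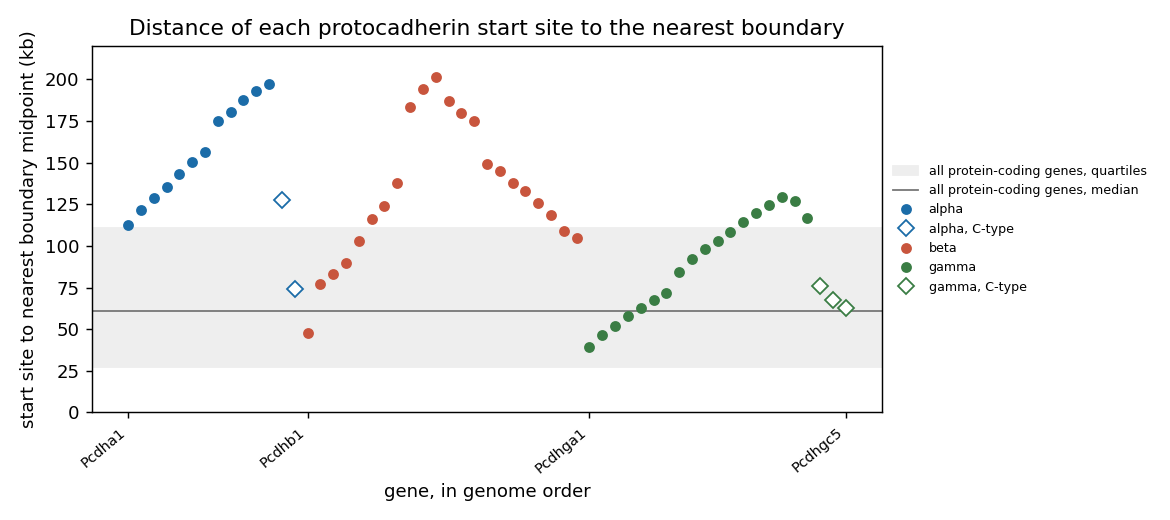
Distance in kb from the start site of each of the 57 genes to the nearest boundary midpoint, in genome order. Diamonds are the 5 C-type genes, and the line and band give the median and quartiles of all protein-coding genes (61.1, 27.5 and 111.0 kb). With no boundary inside an array, distances peak near the middle of each interval, near 200 kb in alpha and beta and below 130 kb in gamma.

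Along the alpha array the start sites moved away from the strong left boundary. Pcdha1 lay 113 kb from it, Pcdha4 135 kb, Pcdha8 175 kb and the second record named Pcdha11 193 kb. From Pcdha12 on the 1.28 boundary was nearer. The C-type genes were the alpha genes closest to it, Pcdhac1 at 127 kb and Pcdhac2 at 74.0 kb. The 3 exons shared by all 14 alpha genes lay between Pcdhac2 and that boundary, ending 61.3, 58.1 and 29.8 kb from its midpoint. The shared end of the alpha genes was thus nearer to a boundary than any alpha start site.

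In the gamma array distances grew from both ends towards Pcdhgb7. The start sites ran from Pcdhga1, 39.3 kb right of the 0.254 boundary, through Pcdhga6 at 84.5 kb to Pcdhgb7 at 129 kb, after which the boundary on the right was nearer. The C-type genes Pcdhgc3, Pcdhgc4 and Pcdhgc5 lay 76.1, 67.4 and 63.0 kb from it. Shared exons ended 57.4, 49.1 and 40.6 kb from its midpoint. Here the first start site, that of Pcdhga1 at 39.3 kb, and the last shared exon were about equally near to a boundary. Their distances differ by less than the 5000 bp of a boundary interval. In the beta array, whose genes are 2.59 to 8.70 kb long, the first gene, Pcdhb1, was 47.4 kb and Pcdhb2 77.3 kb from the 1.28 boundary. The widest space between start sites in this array, 45.7 kb, lay before Pcdhb9, against a median of 7.78 kb. The last gene, Pcdhb22, was 105 kb from the 0.254 boundary.

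The long alpha and gamma gene models held no boundary. Of the members, 25 are 100 to 300 kb long because they reach to the shared exons, and 0 of them had a boundary midpoint inside, against 36.6% of the 1922 protein-coding genes of that length. All 25 overlap one another within their array and count as 2 stretches of sequence. Their 0 follows from the 0 midpoints in the alpha and gamma arrays given above and is not a separate result. The cluster was compared with the 114 intervals that had 17 or more protein-coding TSSs. In 40 of them (35.1%), no TSS was at a boundary. These 40 were the 3 protocadherin intervals, 14 in which over 50% of genes were odorant, vomeronasal or trace amine receptor genes, and 23 others. Gene-rich intervals without a promoter at a boundary thus occurred elsewhere as well.

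Matches to the CTCF motif were dense in exons of the alpha and beta arrays and sat there on opposite strands. The cluster held 20 matches, or 21.9 per Mb, against 5.11 per Mb on the autosomes, where both strands were about equal (6016 forward and 6229 reverse). In the alpha array all 6 were on the forward strand, the strand of the genes. The beta array had 13, all on the reverse strand, and the gamma array 0. The remaining match was on the reverse strand in the alpha to beta boundary. With AGNNGGC, a shorter core that each of these matches contains, the cluster had 1428 matches per Mb against 1688 on the autosomes, so the order was turned. On this core the alpha array had 193 forward and 190 reverse matches, the beta array 162 and 140, and the gamma array 145 and 162. Matches say only that these letters are in the reference sequence, and binding was not measured. The motif is a fixed consensus, so 0 matches in the gamma array do not show that it lacks CTCF sites.

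The matches in the arrays lay at nearly the same place in each gene. Those in alpha genes were in the exons of Pcdha1, Pcdha4, Pcdha6, Pcdha7, Pcdha8 and Pcdha12, 537 to 581 bp after the TSS. Those in beta genes were in 13 genes, among them Pcdhb3, Pcdhb4, Pcdhb5, Pcdhb10, Pcdhb20 and Pcdhb22, 2271 to 2810 bp after the TSS with a median of 2387. A match within 3 kb downstream of the TSS was found in 19 members (33.3%) and in 2.06% of all protein-coding genes. This comparison was added last, and its window covers all the exon matches described above. The 33.3% is therefore not a separate result. Genes of an array are copies of one another, so matches at 1 place in several genes are not independent. No match lay in a member promoter as defined below. The strands of these exon matches therefore do not give the orientation of CTCF sites at promoters.

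**Figure D4:**
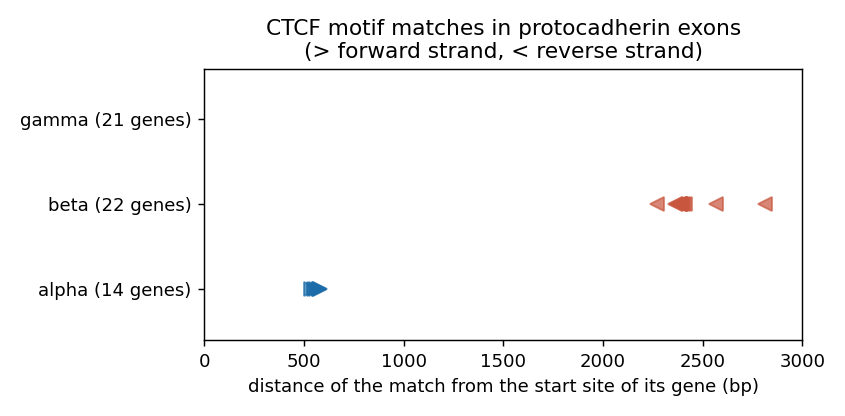
Distance in bp from the start site to each CTCF motif match in an exon of a member, by array and strand. The 6 alpha matches (forward) lie at 537 to 581 bp, the 13 beta matches (reverse) at 2271 to 2810 bp, and the gamma array has none.

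At the boundaries themselves, 2 of the 4 that close the arrays had a match in the widened interval, where 23.9% of all boundaries had one. The match at the 1.28 boundary between the alpha and beta arrays began 32 bp from the midpoint, on the reverse strand and so facing the 6 forward matches of the alpha genes. The 0.428 boundary right of the gamma array had 2 reverse matches, 1.23 and 4.67 kb right of its midpoint. The 2.68 boundary left of the alpha array, the strongest of them, had 0 in this window, with the nearest match 27141 bp away on the left and on the forward strand. The 0.254 boundary also had 0. The position of HS5-1 was not taken from any table here, so the 1.28 boundary was not compared with it.

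The promoters of the members, taken as 250 bases before to 50 after the TSS, had a lower GC content than most. The median was 39.7% against 55% for all protein-coding genes, with 38.7% in alpha, 39.5% in beta and 42% in gamma. The 5 C-type genes had 47.3 to 62% with a median of 54.7%, against 30.7 to 49% with a median of 39.5% for the other 30 alpha and gamma genes. The ranges overlap through Pcdhgc4, the lowest C-type gene. The ratio of observed to expected CpG had a median of 0.521 over the members and 0.530 over all genes. The arrays lay on both sides of this, at 0.639 in alpha, 0.427 in beta and 0.540 in gamma. Most promoters of these genes, but not all, are known to share a sequence element around the letters CGCT. CGCT on either strand occurred in 55 of 57 member promoters (96.5%) against 67.5% of all, and on the forward strand in 50 (87.7%) against 51.4%. Forward CGCT was in 3 of the 5 C-type promoters (60%) and in 28 of the other 30 alpha and gamma promoters (93.3%). These letters alone do not identify the element, since most promoters of all genes hold them. TATAAA on either strand was in 10 member promoters (17.5% against 12.7%) and the CTCF motif in 0 (0.561% of all). This motif is a fixed consensus, so 0 matches do not show that these promoters lack CTCF sites.

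Relatives and partners of the clustered protocadherins, in 4 lists of 62 genes, had 9 TSSs at boundaries. That share was close to the 13.0% of all protein-coding genes. Of the 12 protocadherin genes outside the arrays 0 were there, although their median distance was 36.8 kb, shorter than that of the clustered genes. Among them Pcdh8 lay 16.2 kb from a weak boundary (0.216), Pcdh12 18.1 kb from the 1.08 boundary and Pcdh9 26.8 kb from one of 1.59. Pcdh20 lay farthest out, 531 kb from the nearest boundary. Pcdh9 and Pcdh15, genes of 877 and 1550 kb, each held 1 boundary midpoint.

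Of the 23 cadherin genes, 3 were at boundaries (13.0%, as of all protein-coding genes). They were Cdh4 (1.09), Cdh22 (0.559) and Cdh24 (0.320). Among 15 regulators of protocadherin choice and looping there were also 3 (20%). These were Nipbl (0.813) and Mau2 (0.354), which load cohesin onto DNA, and Pds5a (0.270), a cohesin cofactor. Ctcf itself was 74.1 kb from the nearest boundary, Rad21, a cohesin subunit gene, 99.2 kb, and Smchd1, a gene of a chromatin repressor, 243 kb. Among 12 signalling partners, 3 (25%) were at boundaries, all weak. They comprised Ptk2b (0.377), the gene of the kinase Pyk2, Fyn (0.327), a Src family kinase gene, and Brk1 (0.327), of the WAVE actin regulator. With 3 genes per list these shares are uncertain, and their differences from the share of all genes were not tested.

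Other tandem gene clusters gave a mixed picture. The Ugt1a genes, which also join variable first exons to shared ones, spanned 165 kb and held 1 boundary, a weak one. The keratin type I cluster (1037 kb, 27 genes) held 4 and the type II cluster (685 kb, 26 genes) 3. Of the Hox clusters, which span 96.8 to 174 kb, Hoxb held 1 and Hoxa, Hoxc and Hoxd 0. TSSs at a boundary numbered 2 of 9 in Ugt1a, 3 of 9 in Hoxd, 1 of 26 in keratin type II and 0 in each of the other clusters, against 13.0% of all protein-coding genes. The protocadherin cluster had 2.19 boundaries per Mb, chromosome 18 had 2.91 between its first and last boundary, and these 7 clusters together had 3.78. With strong boundaries alone the values were close, 1.10 for the protocadherin cluster and 1.26 for the 7 clusters. With counts this small the densities were not tested against one another.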

How the data were processed

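Per the series design text and the submitters' processing notes, the authors mapped in situ Hi-C contacts of both replicates to GRCm38, combined them into 1 matrix and called boundaries from it. The deposited strength is a score per boundary on an unstated scale. In the list the lowest is 0.20 and all boundaries from 0.5 up are classed strong. For aligner, caller, window and versions, none is given in the sources used here.

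Boundaries were joined to GENCODE M21 genes and the GRCm38 sequence (Python 3.11.15, pandas 2.3.3, numba 0.67.0). The reference is of another strain than the mice. Intervals run between midpoints of neighbouring boundaries. CTCF matches are one 12-letter consensus on either strand. The joins were tested on simulated data. All members were counted, and named genes followed a rule: array ends, C-type genes, genes next to boundaries, neighbours, and listed relatives at boundaries. Other genes were named after their values were seen. The members and lists were chosen with earlier results of these data known, and the gene-length, gene-rich interval and 3 kb motif comparisons were added last. No statistical test was run. Alternatives are given in the closing section. No sequence is printed.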

Additional observations from a re-analysis of the deposited data

How the results depend on the processing

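With the strong boundaries alone, or with the 1842 strongest, 1 boundary lay inside the cluster in place of 2, the interval with most members measured 790 kb in place of 405 kb, and the median distance to a boundary was 218 kb in place of 120 kb. All genes then had medians of 102 and 281 kb, so with the 1842 strongest the members were closer to boundaries than the median gene, the reverse of the order with all boundaries. Both sets leave out the 0.254 and 0.428 boundaries. The count of 0 members at a boundary was kept under each alternative except 50 kb on each side, which gave 4. For the 62 related genes the count of 9 became 1 with no added bases, 15 with 25 kb, 30 with 50 kb and 3 with strong boundaries alone. The 7 other clusters had 1.26 strong boundaries per Mb against 3.78 of both classes, and the protocadherin cluster 1.10 against 2.19. The shorter core AGNNGGC, which each CTCF match contains, gave 1302 matches in the cluster in place of 20. Other extents of the cluster, inner interval edges and other start sites, RefSeq's included (chosen after seeing the data), changed no value beyond 5 kb. No replicate could be left out, since the authors' list is combined, and the number of reads behind each boundary is unknown.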
